A study of Zea mays with 12 samples.

Results

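The Affymetrix maize array carried 131 probe sets without an annotated gene that were bright on every endosperm array and about equally bright in both inbred parents. A probe set is a group of short probes that together give 1 signal for a transcript. The 131 were chosen by 2 limits on the deposited signal, a lowest value of at least 5000 over all 12 arrays and a larger inbred mean (B73 or Mo17) at most 25% above the smaller one. They are 131 of 17734 probe sets, of which 17621 were not Affymetrix controls and 16168 of those had no annotated gene. Both limits are measured values, so the brightness of these probe sets and the near equality of the inbreds are descriptions and not findings. A working name for the set called its targets the most abundant transcripts of the endosperm. Probe sets differ in how strongly they bind and label, so a signal cannot be set against that of another probe set as an amount, and they are called the bright even probe sets below.

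The samples were endosperms of 4 genotypes, the inbred lines B73 and Mo17 and the reciprocal hybrids B73xMo17 and Mo17xB73, taken 19 days after pollination from plants grown in the field in a single season. By convention the female parent is written first, which the labels do not state. Each genotype had 3 biological replicates, each a pool of 36 endosperms from 6 ears on an array of its own, and the replicate number stands for 1 of 3 crossing dates. No treatment, transgene or mutant allele was named for any group. Across all 12 arrays the trimmed mean signal ran from 299.7 on Mo17 replicate 1 to 451.6 on Mo17 replicate 3, so the arrays did not share a common brightness, and the number of arrays limits the precision. In whole endosperm, fewer cells of a type and less RNA per cell cannot be told apart.

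Maize endosperm is the triploid storage tissue of the kernel, with a double genome dose from the mother and a single one from the father. In its starchy cells a few gene families, above all the zein storage proteins and the enzymes of starch synthesis, supply a large part of the messenger RNA during grain filling. Genes for translation, sugar metabolism and the cytoskeleton are also strongly expressed there. An array reads such transcripts near the top of its range, where the signal can level off before the amount of RNA does.

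The tissue label was checked against marker genes that the annotation names. Of 12 starchy endosperm markers, 9 had a signal over 5000 on every array, and the gene means lay between 2067 and 14474. Not all were high in every genotype, as dzs18 and o2 had means of 15200 and 3540 in B73 but 45.2 and 189.6 in Mo17. The starchy sum was 114412 to 127525 in B73, 86964 to 101984 in Mo17, 117802 to 125098 in B73xMo17 and 105887 to 120621 in Mo17xB73. Of 10 markers of the basal transfer layer, which feeds the endosperm from the mother plant, none was over 5000 on every array. Their means lay between 5.6 and 2106. Their summed signal was 2342 to 2768 in B73, 6220 to 12892 in Mo17, 2888 to 4023 in B73xMo17 and 10563 to 12451 in Mo17xB73. The 4 aleurone markers had means of 4.8 to 495.3 and the 4 embryo markers 15.8 to 784.4. The embryo sum was 420.8 to 841.7 in B73, 1242 to 2256 in Mo17, 567.4 to 1667 in B73xMo17 and 1763 to 2604 in Mo17xB73. Among 4 markers of green or maternal tissue, pdk1, which the endosperm also expresses, was over 5000, whereas the means of rbcS, psaH and CP24 were 23.5, 50.8 and 87.4. The basal layer sums thus separated by the maternal parent. The embryo sums leaned the same way, but those of B73xMo17 overlapped those of Mo17. The starchy sums of Mo17 lay below those of the other genotypes. The part of all these sums in the differences between genotypes below was not tested.

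The mean signal of the bright even probe sets ran from 5817 to 17119, with a median of 8812 against 249.1 over all 11748 probe sets tested. All 131 passed the filter on dim probe sets, as the rule requires. Just inside the lower limit were Zm.14352.2.S1_at and Zm.2302.1.A1_at, whose dimmest arrays read 5006 and 5008. Just outside were Zm.16532.1.A1_a_at and Zm.16593.5.A1_a_at at 4988 and 4923. On the inbred limit, Zm.16909.1.A1_x_at and Zm.2076.2.A1_at were inside at ratios of 1.248 and 1.239, and Zm.10817.5.A1_x_at and Zm.6962.1.S1_at were outside at 1.257 and 1.263. The median ratio of the larger to the smaller inbred mean was 1.07, with B73 higher in 55 and Mo17 higher in 76. For 10 of them all 3 B73 arrays lay above all 3 Mo17 arrays, and for 8 the order was the reverse. The same count was not made over all tested probe sets, so nothing is read from it. These inbred values belong to the choice of the set and were given no test.

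**Figure D1:**
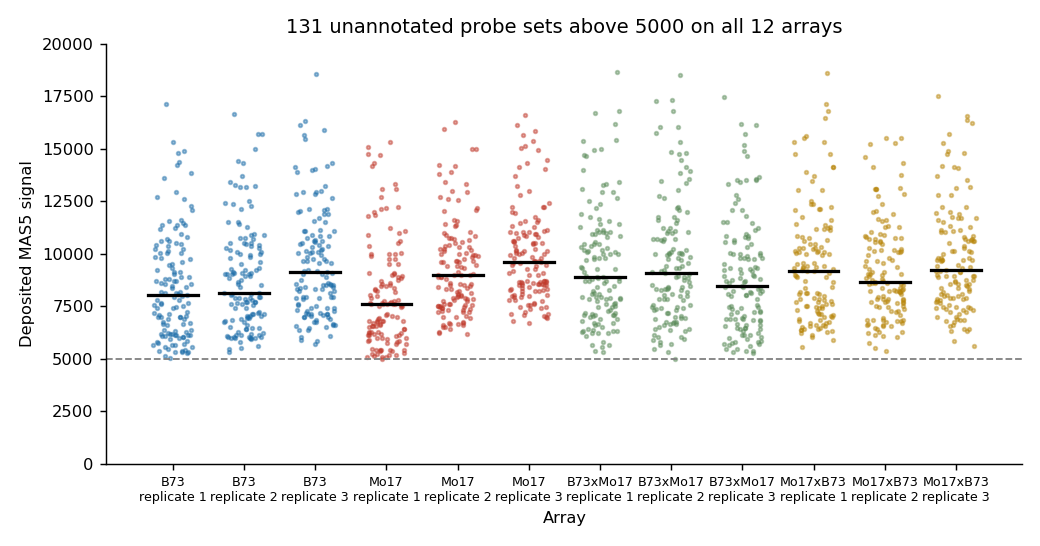
Deposited signal of the 131 bright even probe sets on each of the 12 arrays, coloured by genotype, with 1 point per probe set, a bar at the array's median and a dashed line at the lower limit of 5000. The medians lie between 7596 on Mo17 replicate 1 and 9619 on Mo17 replicate 3, and the highest points between 15335 and 18667.

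The brightest of them was ZmAffx.982.3.A1_s_at. Its signal was 17143, 16686 and 18563 in B73, 14346, 15960 and 16607 in Mo17, 18667, 18541 and 17488 in B73xMo17, and 18633, 15254 and 17538 in Mo17xB73. The 4 genotypes overlapped except that every B73 and B73xMo17 array lay above every Mo17 array, and the highest array was 1.3 times the lowest. The next, Zm.4357.2.S1_x_at, read 15352, 15686 and 16128 in B73, 15084, 14979 and 15677 in Mo17, 16728, 17333 and 16126 in B73xMo17, and 16784, 15520 and 16214 in Mo17xB73. Its highest array was 1.16 times its lowest. Zm.35.3.S1_x_at and Zm.33.1.S1_s_at followed with means of 15912 and 15535 and ratios of 1.16 and 1.18. Each of these 4 had a reciprocal difference of 0.02 to 0.09 on the log2 scale.

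At the dim end of the set, Zm.14352.2.S1_at read 5556, 5329 and 5909 in B73, 5078, 6258 and 6688 in Mo17, 6244, 5006 and 5350 in B73xMo17, and 6217, 5765 and 6408 in Mo17xB73. The hybrids overlapped, and the Mo17 arrays spanned a wider range than the B73 arrays. Zm.15800.4.A1_at read 5311, 5619 and 5825 in B73, 5834, 6608 and 7573 in Mo17, 5364, 5341 and 5721 in B73xMo17, and 6544, 6667 and 6409 in Mo17xB73. Here the B73xMo17 arrays all lay below the Mo17xB73 arrays. Zm.6977.4.A1_at and Zm.2302.1.A1_at had means of 6082 and 6123.

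The probe set names show how the set is built up. The number after Zm names the sequence cluster, and the 131 probe sets fell on 84 numbers, 54 with a single one of them and 30 with several, which together held 77. The numbers Zm.13345, Zm.16958 and Zm.2517 held 5 each. Probe sets of a number share a source and can bind the same transcripts, so they are not independent. Names ending in _at alone made up 39 of 131 (29.8%) against 84.7% of all tested probe sets. Names ending in _a_at, _x_at or _s_at, endings that mark probes shared between transcripts of a gene or of related genes, made up 32.1%, 30.5% and 7.63%, against 9.07%, 4.2% and 1.99%. Signals of such probe sets may sum several family members.

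Among the bright even probe sets, 22 shared their number with a probe set that does carry a gene in the annotation, over 14 numbers and 16 genes. A shared number does not name the gene of the unannotated probe set, and Zm.34 and Zm.3892 each cover more than 1 gene. Numbers shared with storage protein genes gave some of the most even values as deposited. Zm.34.7.A1_x_at, on the number of the gamma zein gene gz27, read 12078, 12400 and 12988 in B73, 12169, 12161 and 12238 in Mo17, 12924, 13373 and 12784 in B73xMo17, and 13053, 12386 and 13171 in Mo17xB73. Its highest array was 1.11 times the lowest, and the hybrids overlapped. On the number of the alpha zein z1C1_4, Zm.10817.7.A1_x_at had 13169 ± 481.4 in B73, 12833 ± 358.7 in Mo17, 13364 ± 626.3 in B73xMo17 and 12892 ± 136 in Mo17xB73 (SD, n = 3). Zm.10817.6.A1_x_at had a mean of 11263. This evenness depended on the scaling of the arrays. After scaling to a common trimmed mean, the standard error of the reciprocal difference went from 0.093 to 0.116 for Zm.34.7.A1_x_at. For Zm.10817.7.A1_x_at it went from 0.094 to 0.134. On the number of the alpha zein z1C1_20 were Zm.4357.2.S1_x_at, given above, and Zm.4357.6.S1_x_at, with a mean of 10794. The number of hag held Zm.14352.2.S1_at, the dimmest of the set.

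The number of sh1, a sucrose synthase that splits the sucrose brought to the kernel, held 2 bright even probe sets with wider spread. Zm.6977.2.A1_at had 7392 ± 478.9 in B73, 7747 ± 1708 in Mo17, 6549 ± 509.9 in B73xMo17 and 7880 ± 956.5 in Mo17xB73 (SD, n = 3). Zm.6977.4.A1_at had 5514 ± 165.2, 6584 ± 1137, 5747 ± 434.7 and 6484 ± 410.4 in the same order. The 95% interval of the reciprocal difference, as log2 B73xMo17 minus Mo17xB73, was -0.58 to 0.05 for the first and -0.45 to 0.10 for the second. The number of pdk1, which makes phosphoenolpyruvate from pyruvate, held Zm.4471.2.S1_a_at and Zm.4471.2.S1_at, with means of 9209 and 9539. The number of GAPC2, a glycolytic dehydrogenase, held Zm.16502.9.A1_a_at, at 9062 ± 611.1 in B73, 11126 ± 987.9 in Mo17, 9545 ± 622.6 in B73xMo17 and 11357 ± 456.9 in Mo17xB73 (SD, n = 3). Its reciprocal difference of -0.25 was not called (limma, adjusted p = 0.14).

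Translation and cytoskeleton numbers were also present. Zm.3892.5.A1_at, on the number of the elongation factor genes elfa2 and elfa3, had a mean of 6512 and a reciprocal difference of -0.07 (95% interval -0.38 to 0.25). Zm.14596.2.A1_at, on the number of the ribosomal protein gene RPL10, had a mean of 8812 and a difference of -0.02 (-0.30 to 0.27). Zm.6045.7.A1_a_at, on that of the alpha tubulin gene tua4, had a mean of 8058. On the number of TUBC, 3 bright even probe sets had means of 8160, 9818 and 10266, while none of the annotated TUBC probe sets exceeded a mean of 195.5. On the number of the glutathione transferase gst5, Zm.4814.3.A1_a_at and Zm.4814.3.A1_at had means of 6304 and 11609 and the annotated probe set 123. In these cases the annotated and unannotated probe sets of a number read very differently. Most of the 131, 109 in all, had no annotated partner on their number.

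Of 66 probe sets whose names begin with RPTR, a prefix Affymetrix uses for reporter and vector sequences, 1 was a bright even probe set. It is singled out here after its values were seen. Its signal was 8708, 9058 and 10141 in B73, 7648, 9985 and 10493 in Mo17, 10361, 10163 and 9524 in B73xMo17, and 9579, 8547 and 9687 in Mo17xB73. It was bright in all 4 genotypes, including the inbreds, whereas the means of the others reached at most 45.8 with a median of 3.8. What it bound was not tested.

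Evenness over all arrays was measured as the ratio of the highest to the lowest array in the deposited signal. The median ratio was 1.36, from 1.11 to 1.8, against 2.14 over all tested probe sets. It was under 1.5 in 109 of 131 and over 2 in 0, against 782 and 6837 of 11748. The choice of the set bears on this ratio, since 6 of the 12 arrays had to have near equal means and all had to exceed the lower limit. The 41 probe sets with an annotated gene that met the same limits, over 36 genes, had a median ratio of 1.37, so the unannotated ones did not stand apart in this value.

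The narrowest ranges were those of Zm.34.7.A1_x_at, given above, and Zm.30.1.S1_a_at, both with a ratio of 1.11. Zm.30.1.S1_a_at read 10603, 10356 and 10826 in B73, 10492, 10734 and 10817 in Mo17, 10958, 10646 and 10828 in B73xMo17, and 11379, 10758 and 11494 in Mo17xB73. All 4 genotypes overlapped in it. The least even were Zm.7177.2.A1_a_at at 1.8, Zm.7177.2.A1_x_at at 1.75 and ZmAffx.1544.1.S1_s_at at 1.7.

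The spread within a genotype was taken as the pooled SD of the log2 values. Its median was 0.121 for the bright even probe sets, from 0.022 to 0.279, against 0.132 for the 41 annotated ones and 0.237 over all tested. Next below the limit, 186 unannotated probe sets with even inbreds and a dimmest array between 2500 and 5000 had a median SD of 0.195. Zm.31.3.S1_a_at had the smallest SD, 0.0221. Its signal was 11170, 10890 and 10830 in B73, 11988, 11629 and 11480 in Mo17, 11124, 10979 and 11233 in B73xMo17, and 12095, 12002 and 11933 in Mo17xB73. All 6 arrays of the genotypes with B73 written first lay below all 6 with Mo17 written first. Zm.13345.5.A1_x_at, with an SD of 0.0308, had the same order. It had 13175 ± 471.4 in B73, 14888 ± 156.5 in Mo17, 13415 ± 143.6 in B73xMo17 and 14608 ± 254.1 in Mo17xB73 (SD, n = 3). The reciprocal differences of this pair were -0.11 (SE 0.094, adjusted p = 0.474) and -0.12 (SE 0.09, adjusted p = 0.406) by limma, whose moderated standard error draws each probe set's own small spread toward that of others at its level.

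**Figure D2:**
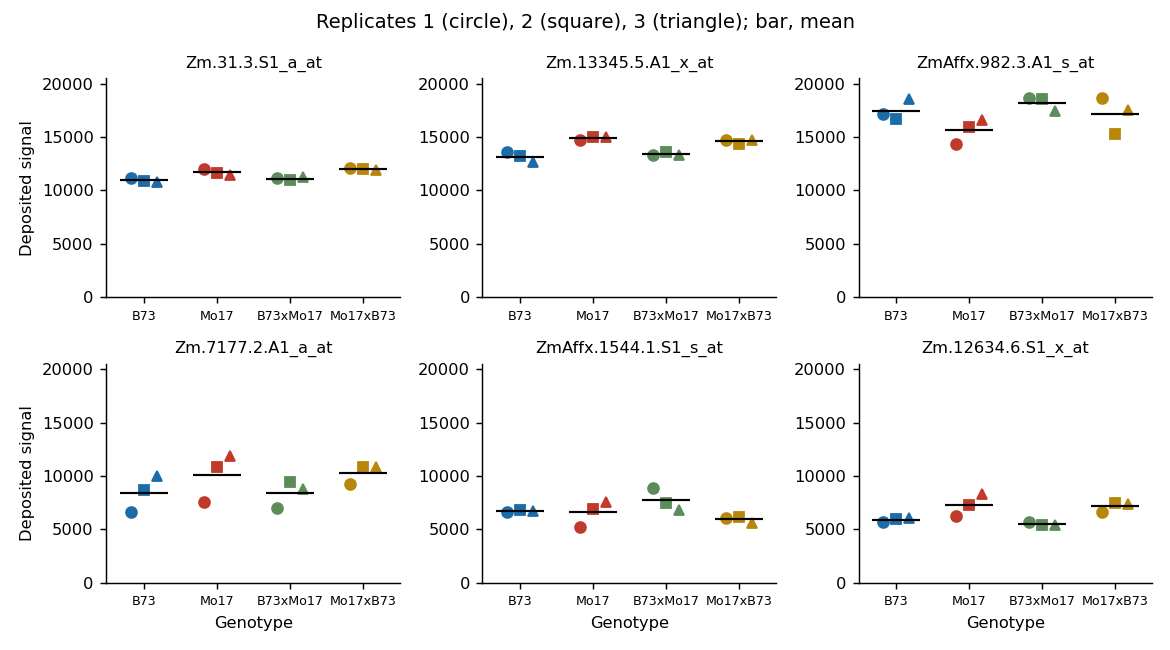
Deposited signal of 6 bright even probe sets on the 12 arrays, in 1 panel each with genotypes along the horizontal axis, 1 point per array and a bar at the genotype mean of 3. The 6 are those of smallest SD (2), highest mean, widest range, and highest and lowest reciprocal difference. In Zm.31.3.S1_a_at and Zm.13345.5.A1_x_at the 3 points of a genotype lie close together, and in Zm.7177.2.A1_a_at they run from 6637 to 11922.

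In the values as deposited, spread fell with brightness inside the set. In 40 bright even probe sets with a mean under 7500 the median SD was 0.158, in 49 between 7500 and 10000 it was 0.121, and in 42 at 10000 or above it was 0.092. The median ratio of the highest to the lowest array fell likewise, from 1.45 through 1.36 to 1.27. The same was seen over all tested probe sets, where the median SD lay between 0.217 and 0.233 in each class from 100 to 5000, at 0.174 between 5000 and 10000, and at 0.095 between 10000 and 20000. The last class held 58 probe sets, 42 of them from the bright even set. In the bright even set, names ending in _at alone had a median SD of 0.143, and the rest 0.116. The SD by class was not taken after scaling of the arrays. After trimmed mean scaling the moderated standard error of the reciprocal difference was not lower in bright examples. It was 0.115, 0.109 and 0.117 for Zm.4357.2.S1_x_at, Zm.35.3.S1_x_at and Zm.33.1.S1_s_at. For the dim Zm.14352.2.S1_at, Zm.15800.4.A1_at and Zm.2302.1.A1_at it was 0.092, 0.09 and 0.08.

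**Figure D3:**
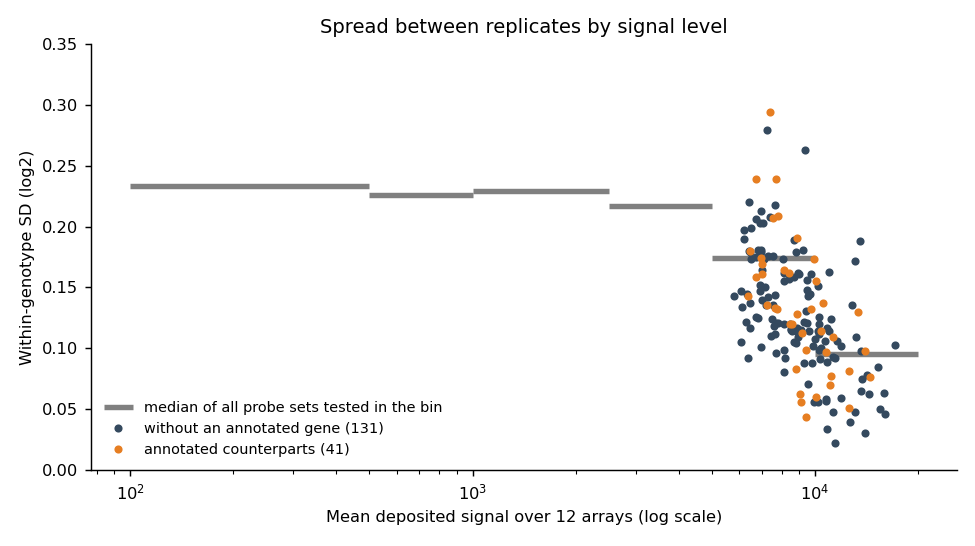
Pooled within-genotype SD of the log2 signal against the mean signal (log axis) for the bright even probe sets and the 41 annotated ones under the same limits, 1 point each, with grey lines at the medians of all tested probe sets by class of signal. Values are as deposited, without scaling of the arrays. The class medians are close to level from 100 to 5000 and fall to 0.095 above 10000.

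The reciprocal hybrids were compared because the choice of the set did not use their values beyond the lower limit. They differ in which line was the mother, and so in genome dose. The inbred limit may therefore also narrow the difference between them, which was not tested. Outside that limit, 18 unannotated probe sets over the same lower limit had a median absolute log2 difference of 0.21, against 0.08 in the set. Of these 18, 7 had an unadjusted p under 0.05 (limma). None of the 131 was called (limma, adjusted p under 0.05), against 11.9% of all tested probe sets (3.11% higher and 8.79% lower in B73xMo17), and 6 had an unadjusted p under 0.05, against 27.3%. The called share was lower among bright probe sets, at 6.67% of 285 tested between 5000 and 10000 and 0% of 58 above 10000. All 131 lie in these classes. The lowest adjusted p in the set was 0.0556. The median log2 difference, B73xMo17 minus Mo17xB73, was -0.02, with values from -0.37 to 0.38 and a median SE of 0.12. Over all tested probe sets the median was -0.14, and the trimmed means were 335.2 to 347.9 on the B73xMo17 arrays and 371.8 to 410.5 on the Mo17xB73 arrays. Among the 41 annotated probe sets the median was 0.00, and 0 were called, with 1 at an unadjusted p under 0.05.

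The absence of calls does not show equality, so the 95% intervals were set against a margin of 25%, that is, neither hybrid more than 25% above the other. The interval lay inside the margin for 63 of 131 (48.1%), against 106 of 11748 (0.902%), and for 24 of the 41 annotated ones (58.5%). The estimate itself lay inside for 129 of 131, and the widest interval ran from -0.66 to 0.67. By brightness, 6 of 40, 25 of 49 and 32 of 42 had their interval inside. This count rests on the lower spread that the fit assigns to bright probe sets, since it was 1 of 131 without the mean-variance trend. For all others, a difference of more than 25% is not excluded at this number of arrays.

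Lying at the negative end, Zm.12634.6.S1_x_at read 5676, 6013 and 6077 in B73, 6271, 7300 and 8341 in Mo17, 5646, 5448 and 5450 in B73xMo17, and 6622, 7456 and 7380 in Mo17xB73. Every B73xMo17 array lay below every Mo17xB73 array and below every B73 array. The reciprocal difference was -0.37 (SE 0.124, 95% interval -0.63 to -0.11, adjusted p = 0.0556 by limma). With the crossing date as a block it passed the threshold (adjusted p = 0.0305), the only one of the 131 to do so in that fit, in which 17.8% of all tested probe sets were called.

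At the positive end, ZmAffx.1544.1.S1_s_at read 6594, 6784 and 6727 in B73, 5213, 6933 and 7603 in Mo17, 8884, 7478 and 6842 in B73xMo17, and 6050, 6129 and 5598 in Mo17xB73. The hybrids did not overlap, and the inbreds did. The reciprocal difference was 0.38 (SE 0.14, 95% interval 0.08 to 0.67, adjusted p = 0.087 by limma). ZmAffx.741.1.A1_s_at behaved alike, at 8929, 7824 and 6892 in B73xMo17 against 6727, 6429 and 5843 in Mo17xB73, with a difference of 0.31 (adjusted p = 0.186). It was picked out after its values were seen. Over the set, the hybrids' arrays did not overlap in 22 probe sets (16.8%), 5 with B73xMo17 above and 17 with it below, against 36.8% of all tested.

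**Figure D4:**
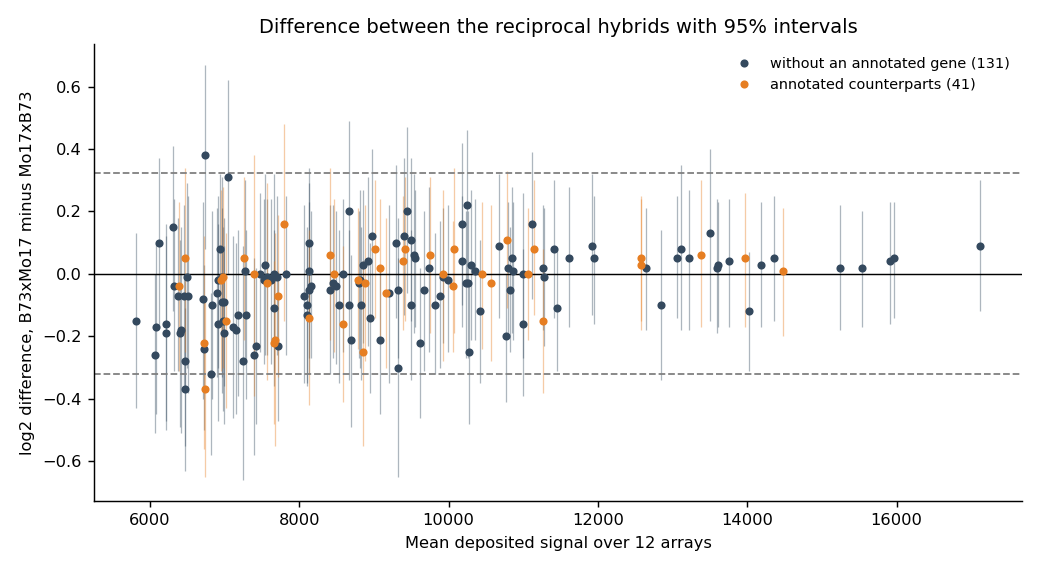
Reciprocal difference (log2 B73xMo17 minus Mo17xB73, points with 95% intervals) against mean signal for the 131 bright even probe sets and the 41 annotated ones, with dashed lines at the margin of 25% either way. The estimates of the 131 run from -0.37 to 0.38, and 63 of their intervals lie wholly between the lines.

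Scaling of the arrays decided both the number and the direction of such calls. As deposited, 51 of 131 estimates were above 0 and 80 below. After each array was scaled to a common trimmed mean, the median of the set was 0.15, 110 were above 0, and 16 (12.2%) were called, all higher in B73xMo17. Over all tested probe sets the median was then 0.02, and 20% were called, 10.8% higher and 9.24% lower. Median centring gave 0.14 and 17 calls (13%), all higher in B73xMo17, against 19.8% of all tested (11% higher and 8.77% lower). Quantile normalization gave 0.00 and 16 calls (12.2%), 8 each way, against 21.6% (11.4% higher and 10.2% lower). Under each scaling the called share of the bright even set lay below that of all tested probe sets, most of which are dimmer. Shares by class of signal were not taken after scaling. After trimmed mean scaling ZmAffx.1544.1.S1_s_at was at 0.55 (adjusted p = 0.00176), ZmAffx.741.1.A1_s_at at 0.48 (adjusted p = 0.00331) and Zm.2302.1.A1_at at 0.27 (adjusted p = 0.0265), whereas Zm.12634.6.S1_x_at was at -0.20 (adjusted p = 0.111). No direction between the hybrids therefore held for the set over the scalings.

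Probe sets of the same number were set side by side. The 3 of Zm.33 all had a reciprocal difference of 0.02. The 5 of Zm.13345 ran from -0.12 to 0.09, those of Zm.16958 from -0.16 to 0.01 and those of Zm.2517 from -0.01 to 0.13. Over the 30 numbers with several bright even probe sets, the range within a number had a median of 0.084 and a largest value of 0.216. A range over so few values is small by construction, and it was not tested against other groupings. Shared probes and shared transcripts within a number were not separated.

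Both hybrids were next compared with both inbreds. The median difference, log2 mean of the hybrids minus log2 mean of the inbreds, was 0.06 in the bright even set, from -0.07 to 0.19 with a median SE of 0.085, against 0.04 over all tested. The median was 0.01 without Mo17 replicate 1, 0.03 without B73 replicate 1 and -0.01 without both, so its sign rests on these dim arrays. It was 0.10 without Mo17 replicate 3, the brightest array, and 0.09 without B73 replicate 3, so its size rests on bright inbred arrays too. With all arrays the difference was above 0 in 121 of 131 (92.4%), against 62.8% of all tested and 85.4% of the 41 annotated ones. None was called (limma, adjusted p under 0.05), against 3.75% (3.73% higher and 0.0255% lower in the hybrids), and 3 had an unadjusted p under 0.05, against 10.3%. The interval lay inside the margin of 25% for 125 of 131 (95.4%), against 22.6% of all tested. It did so for 39 of the 41 annotated ones (95.1%), so the set did not stand apart from them in this share. Among the unannotated probe sets with even inbreds next below the limit of 5000, the share was 75.3%. Without the mean-variance trend the count in the set was 87 of 131, so it rests in part on the spread that the trend assigns.

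The smallest p belonged to Zm.13345.6.A1_x_at. Its signal was 14398, 14430 and 14347 in B73, 11068, 12577 and 13014 in Mo17, 14961, 16057 and 14673 in B73xMo17, and 15339, 14128 and 15285 in Mo17xB73. The Mo17 arrays were the lowest, and 5 of 6 hybrid arrays lay above every B73 array. The difference was 0.19 (SE 0.069, adjusted p = 0.218). In the other direction Zm.2302.1.A1_at had -0.07 (SE 0.092, adjusted p = 0.999). No bright even probe set had all hybrid arrays above or below all inbred arrays, against 0.136% of all tested. The count above 0 moved with the scaling, to 97 after trimmed mean scaling, 77 after median centring and 56 after quantile normalization.

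Crossing dates were tested within the genotypes. Of the 131, 2 were called (limma F test, adjusted p under 0.05), against 2.26% of all tested probe sets, and 11 had an unadjusted p under 0.05, against 18.9%. A count of 2 is near the share over all tested. Both lay on the number of ald1, by its name a gene for aldolase, an enzyme of glycolysis. Zm.7177.2.A1_a_at read 6637, 8650 and 10049 on dates 1, 2 and 3 in B73, 7556, 10858 and 11922 in Mo17, 7036, 9413 and 8793 in B73xMo17, and 9293, 10849 and 10838 in Mo17xB73. Date 1 was the lowest in all 4 genotypes. On the log2 scale date 2 was higher than date 1 by 0.39 and date 3 by 0.45 (adjusted p = 0.0251).

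Zm.7177.2.A1_x_at gave 0.41 and 0.48 (adjusted p = 0.0246), from 5412, 6875 and 7960 in B73, 5764, 7969 and 9295 in Mo17, 5311, 7795 and 6660 in B73xMo17, and 6868, 8312 and 8689 in Mo17xB73. Date 1 was again the lowest throughout. This pair is not independent, as their names share everything but the ending. Both calls were lost without B73 replicate 1, B73 replicate 3 or Mo17 replicate 1 (0 called), and the count was 5 without B73xMo17 replicate 3. The shares over all tested probe sets were not taken in these fits. Over the whole set, date 3 was above date 1 in 121 of 131 with a median of 0.11, against 76.1% and 0.17 over all tested probe sets. The dim first replicates of both inbreds lie on date 1. Among the annotated probe sets, bt2, a subunit of ADP-glucose pyrophosphorylase in starch synthesis, was the one called (5264 to 9357 over the arrays, adjusted p = 0.0278).

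As shares of each probe set's variance over the 12 arrays, genotype had a median of 28.9% in the bright even set, date 16.3% and the rest 43.1%. Over all tested probe sets the medians were 52.8%, 12.2% and 26.5%. These are shares of raw sums of squares, not corrected for degrees of freedom. Genotype and date therefore take a share even where they have no effect, and the shares in the set are not read as effects. The inbred limit of the rule may lower the genotype share, which was not tested. The 41 annotated probe sets had 29.2%, 16.7% and 44.2%.

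Single arrays set much of the variation. Mo17 replicate 1 was the lowest array for 75 of 131 and B73 replicate 1 for 35, and Mo17 replicate 3 was the highest for 50. The median signal of the set was 8033, 8137 and 9127 in B73, 7596, 8985 and 9619 in Mo17, 8884, 9070 and 8465 in B73xMo17, and 9181, 8668 and 9220 in Mo17xB73. The first inbred replicates were the lowest, as they were in the trimmed mean of all probe sets, at 302 in B73 and 299.7 in Mo17. Without these 2 arrays 8 of 131 (6.11%) were called between the hybrids, 2 higher and 6 lower in B73xMo17, against 24.4% of all tested (5.42% higher and 19% lower). For date 0 were then called, against 0.0255%.

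Signs of saturation were sought in the differences between bright and dim arrays. Between Mo17 replicates 1 and 3, which were the dimmest and the brightest arrays, the trimmed mean rose 1.51-fold. The bright even probe sets rose 1.27-fold at the median, by 1.39-fold under a mean of 7500, 1.27-fold from 7500 to 10000 and 1.16-fold at 10000 or above. Over all probe sets the ratio was 1.41 between 100 and 500, 1.5 between 500 and 1000, 1.53 in the classes from 1000 to 5000, 1.38 between 5000 and 10000, and 1.16 above 10000. Above 5000, and inside the bright even set, it thus fell with signal, whereas below 5000 it rose.

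B73 replicates 1 and 3 gave the same order with a smaller range. Their trimmed means differed 1.2-fold and the bright even probe sets 1.13-fold, by 1.18-fold in the dimmest of the 3 classes, 1.14-fold in the middle one and 1.1-fold in the brightest. Over all probe sets the ratio was 1.14 between 100 and 500, 1.23 from 1000 to 5000 and 1.1 above 10000. Over all 12 arrays, the median deviations of the arrays from their genotype's mean spanned 0.459 on the log2 scale in the class under 7500, 0.348 in the middle class and 0.217 at 10000 or above. For all probe sets this range was 0.492 between 100 and 500, 0.615 between 1000 and 2500, 0.469 between 5000 and 10000, and 0.218 above 10000.

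**Figure D5:**
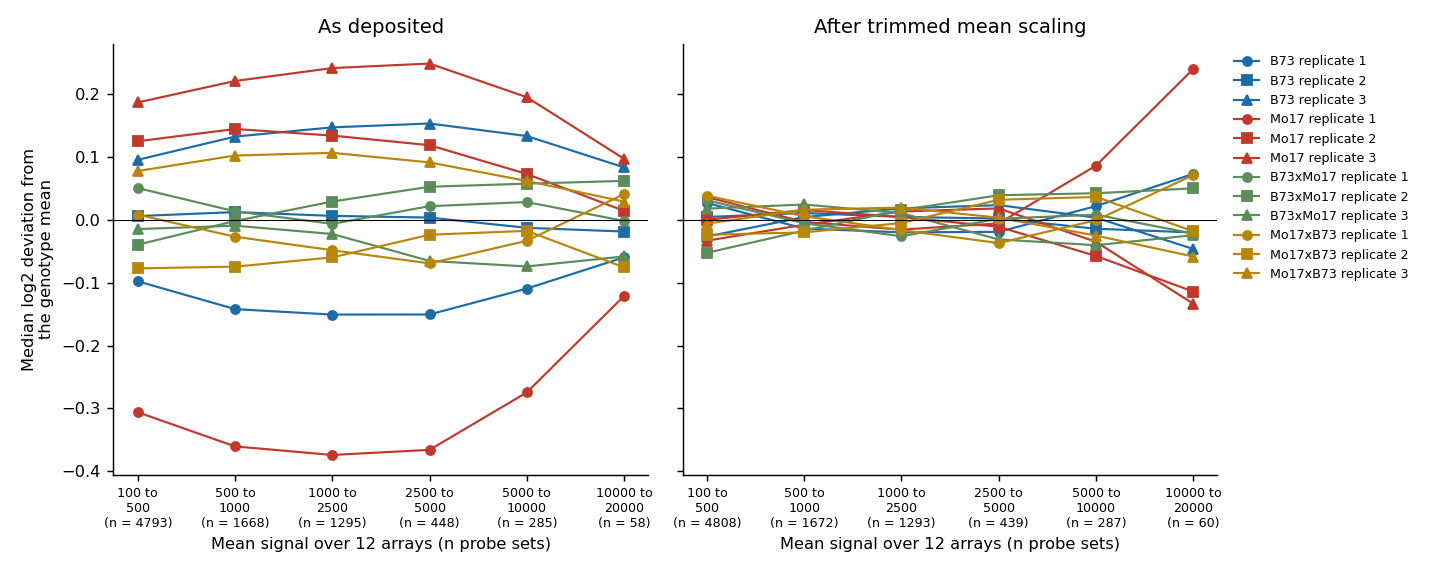
Median log2 deviation of each array from the mean of its genotype, by class of mean signal, as deposited (left) and after trimmed mean scaling (right), with 1 line per array. As deposited the lines span 0.614 between 2500 and 5000 and 0.218 above 10000, and after scaling they span 0.076 and 0.373 in these classes.

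Scaling each array by a single factor therefore turned the order at the top. After trimmed mean scaling the range was 0.046 between 1000 and 2500 and 0.373 above 10000, with Mo17 replicate 1, the dimmest array as deposited, 0.239 above the mean of its genotype in the brightest class. In the set itself the range went from 0.350 to 0.255. The reciprocal difference after that scaling grew with brightness, with medians of 0.04, 0.15 and 0.20 in the 3 classes, whereas as deposited they were -0.13, -0.03 and 0.03.

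No ceiling value appeared in the deposited signals. The highest signal of an array lay between 15335 and 18667, and on every array it belonged to a bright even probe set, ZmAffx.982.3.A1_s_at on 9 arrays and Zm.35.3.S1_x_at on 3. Counting that probe set, 1 to 9 lay within 10% of the highest signal, and none tied with it. The signals of control transcripts covered these levels only in part. Of 27 probe sets for spike-ins, transcripts added in known amounts, 15 with a mean signal under 1000 had a median ratio of the highest to the lowest array of 1.81, from 1.48 to 3.36. For 7 between 1000 and 5000 the median was 1.86, from 1.55 to 1.93, and for 5 above 5000 it was 1.46, from 1.38 to 2.02. The ratios of the 3 classes overlapped, and the 2.02 belonged to CreX-3, with a mean of 7001. Between Mo17 replicates 1 and 3 the ratio was 1.8 for r2-Ec-bioB-M (mean 427.7) and 1.68 for r2-Ec-bioD-3 (3691). It was 1.45 for r2-P1-cre-3 (9920) and 1.38 for r2-P1-cre-5 (10005, the brightest spike-in). In B73 these ratios were 1.44, 1.3, 1.3 and 1.18. CreX-3 rose from 4451 to 9006 over the Mo17 pair and from 5465 to 8133 over the B73 pair. The set reached a mean of 17119. The control for maize elongation factor, ef1a-M, read 10234 to 13510 with a ratio of 1.32. Whether probes were saturated was not tested, since pixel and probe intensities were not used here, and narrower differences at high signal cannot be told apart from evenness of the transcripts.

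Annotated probe sets under the same limits show which known transcripts read at this level. Of 8 zein genes 6 were among them, with z1D_2 at 13169 to 15824 over the arrays and a reciprocal difference of 0.01, and gz50, a gamma zein, at 12110 to 15475 and 0.05. Of 16 genes of starch and sucrose use 6 were, with sh2, the large subunit of ADP-glucose pyrophosphorylase, at 11232 to 14810 and 0.06, and sh1 at 11757 to 13914. Of 28 translation genes 6 were, among them the elongation factor gene elfa2 with a mean of 9020 and the ribosomal protein gene rpp3, whose reciprocal difference of -0.37 had the lowest adjusted p of the annotated ones, 0.0817. With the crossing date as a block rpp3 was called (adjusted p = 0.0423), the only one of the 41. Over all list genes tested, 0 of 8 zeins were called higher and 1 lower in B73xMo17, 1 and 3 of 14 starch and sucrose genes, and 0 and 0 of 28 translation genes. The medians of these lists were 0.03, 0.02 and -0.15, against -0.14 over all tested probe sets.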

How the data were processed

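Total RNA (8 micrograms a pool) was labelled with biotin and hybridised to single-colour Affymetrix maize arrays. The authors deposited intensity values, 1 linear signal for each probe set on each array, and the submitters' processing notes name MAS5 as the tool. Its version and scaling target were not given in the sources used here.

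Values were kept as deposited and put on the scale log2(signal + 10.6), where 10.6 is the 20th percentile of all values. Of 17621 non-control probe sets the dimmest 33.3% by mean were left out, which left 11748 for limma 3.58.1 under R 4.3.3 (a linear model, then eBayes with a mean-variance trend) over all 4 genotypes, with 8 residual degrees of freedom and 19.8 with the prior. Tests were two-sided with Benjamini-Hochberg adjustment over all 11748 at 0.05. Every fit used all 12 arrays unless stated, and the steps were tested on simulated data. Replicates were separate pools from 3 crossing dates, and p-values rest on the spread among those pools.

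Genes were named from the annotation of the platform, with symbols updated from an NCBI gene table. The bright even probe sets and the gene lists were chosen with earlier results of these data known. Named by rule were the 4 brightest and 4 dimmest, the extremes of SD and of range, the called or smallest-p ones of each contrast in each direction, and those nearest each limit. Others are examples chosen after their values were seen.

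Per the labels' growth protocol, replicate numbers mark shared crossing dates and so pair the arrays. For arrays sharing a number, deviations from the genotype means had correlations of 0.0437 to 0.412 (18 pairs, 13 over 0.1), and for other arrays -0.321 to 0.167 (36 pairs). The main fit had no block. Alternatives covered scaling, constant, filter, variance model, block, arrays left out and the limits of the choice. No sequences are printed, as none were used here.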

Additional observations from a re-analysis of the deposited data

How the results depend on the processing

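Between the reciprocal hybrids, the count of called bright even probe sets was 0 as deposited, 16 after quantile normalization, 17 after median centring, 16 after trimmed mean scaling, 3 with only the hybrids' arrays and 1 with the replicate block. It was 24 with the block after trimmed mean scaling and 8 without the 2 dimmest arrays, both alternatives chosen after seeing the data. With 1 array left out it was 0 to 6 (6 without Mo17 replicate 1). Shares over all tested probe sets are given above for the scalings, the block and the fit without the 2 dimmest arrays (24.4%). They were not taken for the other settings, so nothing is read from those counts about the set. The block moved no other count by over 1.5 times. Intervals inside the 25% margin numbered 63, and 112 after quantile normalization, 37 with no filter on dim probe sets, 1 without the mean-variance trend and 21 to 90 with 1 array left out, the low values when a hybrid array was dropped. The median reciprocal difference went from -0.02 to 0.14 (median centring) and 0.15 (trimmed means), and lay between -0.05 and 0.00 with 1 array left out. The median SD went from 0.121 to 0.0716 after quantile normalization. For hybrids against inbreds, 0 were called under every alternative run, and the median difference of 0.06 went to -0.01 without the 2 dimmest arrays and to 0.01 to 0.10 with 1 array left out. The 2 calls for crossing date became 0 after median centring, with no filter, without the trend and without the 2 dimmest arrays, 1 after trimmed mean scaling, and 0 to 5 with 1 array left out. For date, the share over all tested probe sets was taken only in the main fit and without the 2 dimmest arrays. The set numbered 201 with a floor of 4000, 21 with a floor of 10000 and 87 with an inbred limit of 1.1-fold, and 123 to 136 when 1 array was left out of the choice. The range of array deviations between 5000 and 10000 went from 0.469 to 0.143 after trimmed mean scaling. Causes were not tested, apart from the smaller or larger variance that the filter and trend alternatives assign by construction. The main limits are the small number of arrays, the unknown scaling of the deposited values and the signal range, where dim and bright arrays differ less.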

Other observations

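Under the same lower limit, 18 unannotated probe sets had a larger inbred mean more than 25% above the smaller. Their median SD was 0.133, close to that of the bright even set, and 1 of 18 was called between the reciprocal hybrids. Among the 186 unannotated probe sets with even inbreds and a dimmest array between 2500 and 5000, 9 were called. Of these 186, 13 (6.99%) had an interval inside the margin of 25%. Over all tested probe sets 11.9% were called and 0.902% had such an interval. Each of these groups was read with the same fit and the same margin as the 131.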
